A study of Mus musculus with 8 samples.

Results

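The small heat shock proteins Hspb1, Hspb2, Hspb3, Hspb6, Hspb7, Hspb8 and Cryab and the cochaperone Bag3 were followed in the tibialis anterior (TA) muscle and the cerebellum of wild-type mice (WT) and of SCA17 knock-in mice (KI). These 8 genes, of 19938 with a probe set of their own, were taken by gene symbol, with the brightest probe set of a gene where it had several. SCA17 (spinocerebellar ataxia 17) is a dominant ataxia in which TBP, the general transcription factor that binds TATA boxes, carries an expanded run of glutamines. RNA came from mice aged 3 months and was hybridised to Affymetrix Mouse Gene 1.0 ST arrays, with 2 arrays for each of KI muscle (replicates 94 and 97), WT muscle (95 and 96), KI cerebellum (94 and 97) and WT cerebellum (95 and 96). The labels speak of 3 mice per genotype. The sources used here do not give the repeat length, the strain, how the KI allele is expressed, or whether an array held RNA of 1 mouse. No source says that the arrays of a group are separate animals, so the p values measure only the spread between these arrays.

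Small heat shock proteins are chaperones that need no ATP. They share an alpha-crystallin domain, assemble into oligomers and hold unfolding proteins until HSP70 chaperones take them over. In striated muscle they sit at the Z-disc and along desmin and filamin, which contraction strains. BAG3 binds HSPB8 and HSP70 at the same time and hands damaged filamin to autophagy. In brain Cryab is known from oligodendrocytes and astrocytes, and human mutations of HSPB1, HSPB8, CRYAB and BAG3 cause neuropathies or myopathies.

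Heat shock factor HSF1, the main activator of stress-induced chaperones, binds inverted repeats of GAA. Promoter sequences of RefSeq (GRCm38.p6) matched 6 of the 8 members, Hspb2 and Cryab not among them, and Hspb6 had 2 windows. The 250 bases before the start are shown for the 4 members with an entry and an unadjusted p under 0.05 in either tissue, since the genotype comparisons turn on these members. Capitals mark heat shock elements of 2 units (GAANNTTC or TTCNNGAA) and TATA boxes (TATAAA or TTTATA), the sequence that TBP binds.
Hspb1 (chr5:135887669-135887918, plus strand): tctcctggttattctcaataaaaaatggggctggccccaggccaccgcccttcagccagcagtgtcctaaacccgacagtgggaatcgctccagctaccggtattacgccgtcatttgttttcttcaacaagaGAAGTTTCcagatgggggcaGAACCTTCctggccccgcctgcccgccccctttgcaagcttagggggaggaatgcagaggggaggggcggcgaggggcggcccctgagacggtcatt
Hspb3 (chr13:113663677-113663926, minus strand): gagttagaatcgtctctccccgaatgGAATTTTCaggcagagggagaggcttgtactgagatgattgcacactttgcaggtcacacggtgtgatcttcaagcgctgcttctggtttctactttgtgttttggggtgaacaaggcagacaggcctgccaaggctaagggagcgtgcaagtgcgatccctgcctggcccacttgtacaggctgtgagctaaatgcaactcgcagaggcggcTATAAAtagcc
Hspb7 (chr4:141420529-141420778, plus strand): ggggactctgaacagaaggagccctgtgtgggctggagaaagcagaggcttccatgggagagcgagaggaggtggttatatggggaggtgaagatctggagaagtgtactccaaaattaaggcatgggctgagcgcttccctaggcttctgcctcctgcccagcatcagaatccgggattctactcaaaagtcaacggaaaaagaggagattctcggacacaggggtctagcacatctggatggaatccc
Bag3 (chr7:128523333-128523582, plus strand): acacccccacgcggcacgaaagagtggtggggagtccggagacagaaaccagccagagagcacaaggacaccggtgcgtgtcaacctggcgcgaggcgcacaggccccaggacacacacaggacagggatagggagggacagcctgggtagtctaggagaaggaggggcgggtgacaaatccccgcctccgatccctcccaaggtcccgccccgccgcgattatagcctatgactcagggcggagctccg
The Hspb1 window held 2 matches to the heat shock element, GAAGTTTC starting 117 bases and GAACCTTC starting 97 bases before the start. Hspb3 held 1 match 224 bases before the start and a TATA box 11 bases before it. The second window of Hspb6 held 1 heat shock element and 1 TATA box, 120 and 29 bases before the start. Neither motif was found in these letters of Hspb7, Hspb8, Bag3 or the first window of Hspb6. Both motifs were searched on both strands. Of 32851 such windows of 27025 genes, 12.8% held a heat shock element of 2 units, 0.466% held 1 of 3 units and 12.4% held a TATA box, and no member held 3 units. A match is a description of the letters and no evidence of binding.

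All 8 members were higher in muscle than in the cerebellum, each with its 4 muscle arrays above its 4 cerebellum arrays. The tissues were compared as averages over both genotypes, and calls needed a limma p under 0.05 after Benjamini-Hochberg adjustment and a change of at least 2-fold. The comparisons of genotypes below used the same p with no limit on fold. All 8 were called higher, where 11% of 14708 genes tested were. In 31.6% of genes all muscle arrays lay above all cerebellum arrays. Hspb7, a small heat shock protein of heart and skeletal muscle, was at least 33.1-fold higher, with each cerebellum array taken at the limit for testing where its own value was lower (fitted log2 difference 5.25 ± 0.13, SE; adjusted p = 6.22e-10). Hspb6, which protein kinase A phosphorylates in muscle, was 28.5-fold higher (4.83 ± 0.08; adjusted p = 7.07e-11). Hspb1 was 11.5-fold and Hspb8 10.6-fold higher, Bag3 5.97-fold, Hspb3 5.19-fold and Hspb2, known for binding the kinase Dmpk, 4.88-fold. Cryab had the smallest tissue difference of the members, 3.90-fold (1.96 ± 0.07; adjusted p = 9.08e-09). Hspb2 and Cryab are neighbouring genes on chromosome 9 in the RefSeq table.

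**Figure D1:**
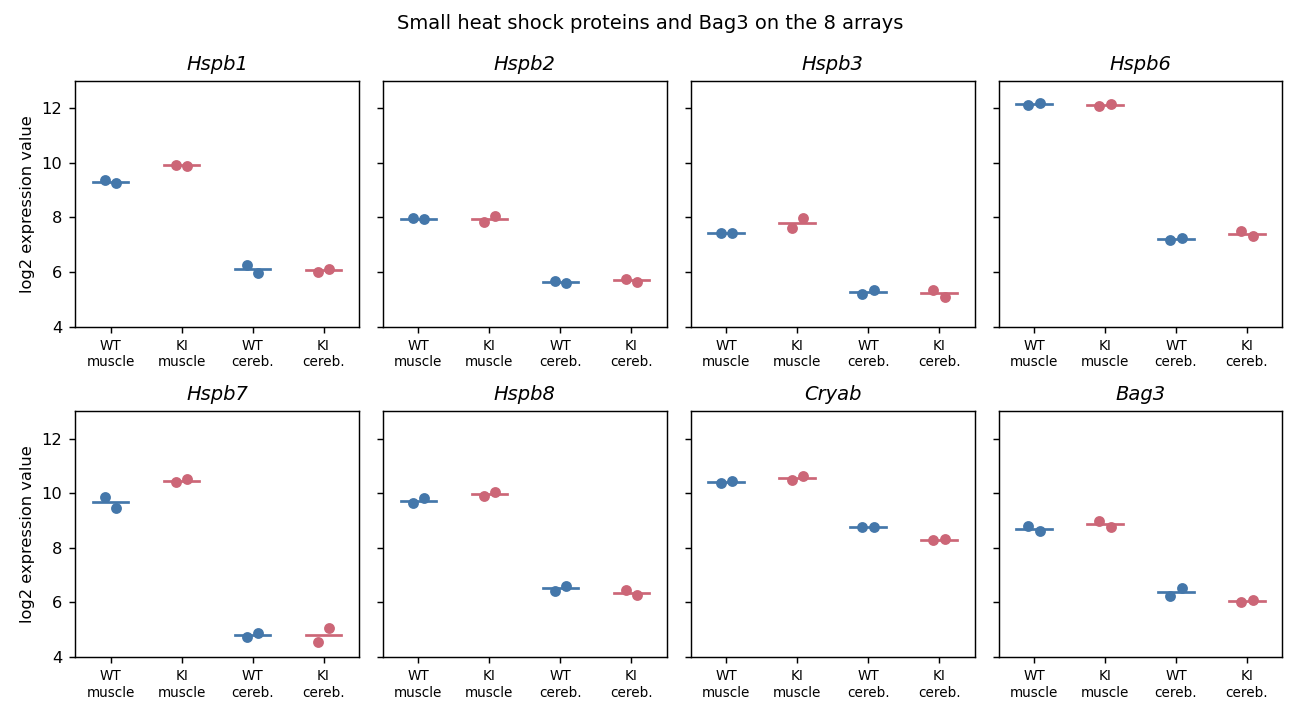
Each panel plots 1 gene: points are the log2 expression values of the arrays, bars are group means over 2 arrays, blue is WT and red is KI. In all 8 panels the muscle arrays sit above the cerebellum arrays. The tissue means differ 3.90-fold for Cryab. For Hspb7 they differ at least 33.1-fold with low cerebellum values raised to the limit for testing, which is not plotted.

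Levels in the cerebellum differed in how far they stood above the array background. Hspb7 was at 4.74 and 4.88 in WT and 4.54 and 5.06 in KI, and 3 of these 4 arrays were below the limit for testing a gene, the array's 40th percentile over probe sets. It was therefore not tested between genotypes there, and the size of its tissue fold depends on the array background. Hspb3 lay between 5.07 and 5.36 in the cerebellum, from the 40.5th to the 47.7th percentile, so its tissue fold has the same limit. Cryab reached between the 89.8th and the 93.3rd percentile in the cerebellum. The other 5 members lay between the 52.3rd and the 82.4th.

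In KI muscle Hspb1 rose and no other member was called. Hspb1 was at 9.92 and 9.90 in KI and at 9.36 and 9.27 in WT. The KI arrays stood clear of the WT arrays by far more than either pair differed. The log2 difference was 0.60 ± 0.12 (SE, n = 2 per group), or 1.51-fold, with adjusted p = 0.0328 in limma. The annotation gives a second probe set to Hspb1, whose difference was 0.59 against 0.60. It was at 9.82 and 9.80 in KI and at 9.26 and 9.17 in WT on the same arrays, and so adds no replicate. The share of all tested genes called was 3.55% in muscle, and 2.66% were called higher. The call did not hold when 1 muscle array, whichever of the 4, was left out (adjusted p from 0.108 to 0.124). It did not hold either without a KI cerebellum array (0.0514) or in a fit of muscle alone (0.066).

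Hspb7 had a larger difference than Hspb1 but a wider spread. It was at 10.39 and 10.52 in KI muscle and at 9.86 and 9.46 in WT, without overlap. The log2 difference was 0.79 ± 0.19 (SE), or 1.73-fold, and adjusted p = 0.052 missed the threshold. It passed at values of 0.0299 to 0.0395: with arrays centred on their medians (0.0335), with trended and robust variances (0.0299) and without either KI cerebellum array (0.0395). Hspb3, which forms complexes with Hspb2, was at 7.62 and 7.96 in KI and at 7.43 and 7.42 in WT. Its difference of 0.37 ± 0.15 did not pass (adjusted p = 0.199), and replicate 97 lay 0.54 above the WT mean and replicate 94 only 0.20.

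The partners Hspb8 and Bag3 did not pass in muscle. Hspb8, the best known partner of BAG3 among them, was at 9.89 and 10.03 in KI and at 9.62 and 9.81 in WT, a difference of 0.24 ± 0.13 (SE; adjusted p = 0.328). Bag3 was at 8.98 and 8.76 in KI and at 8.78 and 8.62 in WT, and these ranges overlapped. Its difference was 0.17 ± 0.13 with a 95% interval from -0.13 to 0.47. Cryab, the alphaB-crystallin that holds desmin, was at 10.49 and 10.63 in KI and at 10.36 and 10.44 in WT. Its difference of 0.16 ± 0.10 did not pass either (adjusted p = 0.429).

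Hspb6 and Hspb2 lay closest to 0 in muscle. Hspb6 was at 12.08 and 12.15 in KI and at 12.13 and 12.20 in WT (difference -0.05, 95% interval from -0.31 to 0.20). Hspb2 was at 7.83 and 8.06 in KI and at 7.98 and 7.93 in WT, and its difference was -0.01 with an interval from -0.27 to 0.25. Of the 8 members, 6 had a positive difference and 5 had both KI arrays above both WT arrays, where 55% and 30.3% of all tested genes did. The members' median was 0.21 against 0.03 over all genes tested. At an unadjusted p under 0.05 there were 3 members (Hspb1, Hspb7 and Hspb3), where 20.3% of genes passed that level.

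**Figure D2:**
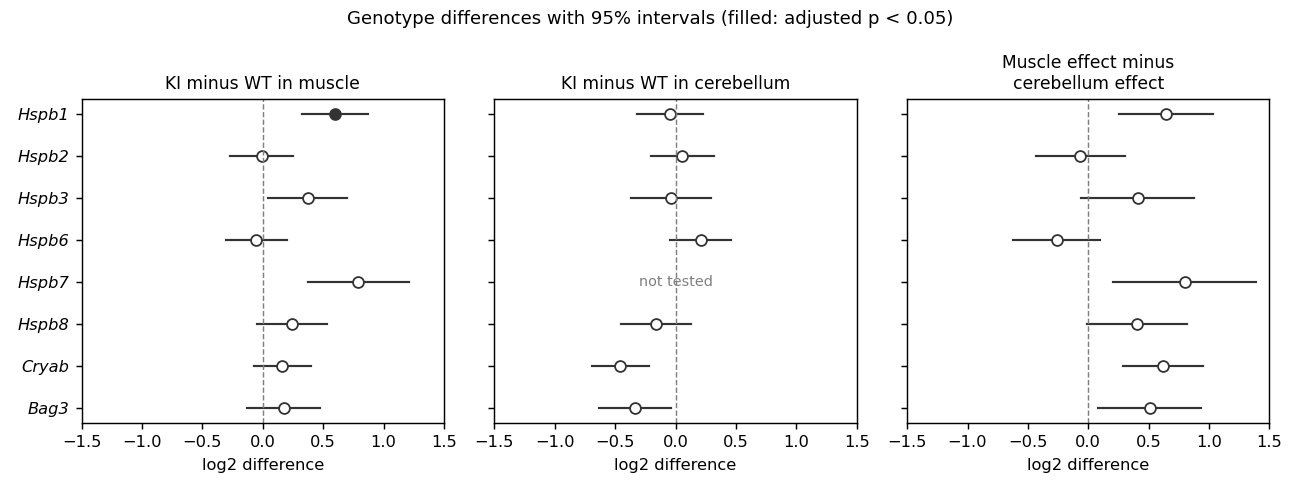
Points are log2 differences of the 8 genes in the 3 comparisons named above the panels, and lines are 95% intervals from the limma fit. Hspb1 in muscle is the only filled point (0.60, adjusted p = 0.0328), while Cryab (-0.46) and Bag3 (-0.34) lie furthest below 0 in the cerebellum.

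No cell type marker was called between genotypes in muscle, but the summed levels of several lists did not overlap. All 6 muscle fibre markers (Acta1, Ckm, Mylpf, Myh4, Tnnt3 and Ryr1) had both KI arrays below both WT arrays, where 19.9% of genes did. Of these 6, 4 had an unadjusted p under 0.05, where 20.3% of genes did. Their summed log2 level was from 13.98 to 14.02 in KI and from 14.35 to 14.45 in WT. The 5 smooth muscle markers (Acta2, Myh11, Tagln, Cnn1 and Smtn) all had a higher KI mean, where 55% of genes did. Of these 5, 4 had both KI arrays above both WT arrays, where 30.3% of genes did. The sum of the 5 was from 9.97 to 9.99 in KI and from 9.72 to 9.84 in WT. All 6 macrophage markers had a higher KI mean, beside 55% of all genes, and 4 had both KI arrays above both WT arrays, beside 30.3%. The sum of the 6 was from 8.54 to 8.88 in KI and from 8.37 to 8.37 in WT. Hspb1, Hspb6 and Cryab are also known from smooth muscle. The 1 Schwann cell marker measured was from 5.44 to 5.54 in KI and from 5.70 to 5.72 in WT. Sums for fibroblasts, slow fibres and endothelial cells overlapped between genotypes. The part of these cells in the rise of Hspb1 was not tested, and in a bulk sample fewer cells of a type and less RNA per cell cannot be told apart.

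In the KI cerebellum no member passed in limma, and 2 of the 7 tested, Cryab and Bag3, had an unadjusted p under 0.05. Of all tested genes, 0.205% were called and 5.33% had such a p. Cryab was at 8.27 and 8.31 in KI and at 8.75 and 8.74 in WT. Both KI arrays stood below both WT arrays, and the gap was wider than the gap within either pair. The log2 difference was -0.46 ± 0.10 (SE, n = 2 per group), or 1.37-fold, with unadjusted p = 0.00169 and adjusted p = 0.31. Cryab ranked 74th by p among 13641 genes, and its adjusted p was from 0.111 to 1.00 over 16 alternatives. Bag3 was at 6.01 and 6.07 in KI and at 6.24 and 6.51 in WT. Its KI arrays too were below both WT arrays (difference -0.34 ± 0.13, adjusted p = 0.857).

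The other members showed no common direction in the cerebellum. Hspb6 was at 7.52 and 7.30 in KI and at 7.16 and 7.24 in WT, the member with both KI arrays above (0.21 ± 0.11, adjusted p = 0.998). Hspb8 was at 6.45 and 6.25 in KI and at 6.41 and 6.61 in WT (-0.16 ± 0.13, adjusted p = 0.998). The differences of Hspb1, Hspb2 and Hspb3 lay between -0.05 and 0.06. Both KI arrays were below both WT arrays in 2 of the 7 tested members and above in 1, where 20% and 15.3% of all genes were.

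Purkinje cell markers were lower in the same KI arrays. The 3 with a probe set of their own, Pcp2, Calb1 and Car8, all had both KI arrays below both WT arrays, where 20% of genes did, and an unadjusted p under 0.05, where 5.33% did. None was called (adjusted p from 0.148 to 0.648). Their summed log2 level was from 11.55 to 11.73 in KI and from 12.20 to 12.39 in WT. For cells known for Cryab the summed marker levels overlapped between genotypes, though 1 of 4 oligodendrocyte markers and 1 of 5 of Bergmann glia and astrocytes had both KI arrays below both WT arrays. The oligodendrocyte sum was from 10.62 to 10.98 in KI and from 10.77 to 10.86 in WT. The sum for Bergmann glia and astrocytes was from 11.51 to 11.62 in KI and from 11.60 to 11.61 in WT. The granule cell sum (4 markers, none called) was from 12.25 to 12.47 in KI and from 12.50 to 12.69 in WT. All 4 granule cell markers had a lower KI mean, where 47.5% of all genes had a higher one. Of the 4, 2 had both KI arrays below both WT arrays, beside 20% of genes. The sum of 6 macrophage and microglia markers was from 8.66 to 8.79 in KI and from 8.42 to 8.45 in WT. Of the 5 tested there, 3 were higher in KI without overlap, where 15.3% of genes were. The fibroblast sum was from 9.38 to 9.49 in KI and from 9.17 to 9.31 in WT. Of its 4 tested markers, 3 were higher in KI without overlap, beside the same 15.3% of genes. The endothelial sum was from 8.47 to 8.55 in KI and from 8.30 to 8.44 in WT. The part of these cells in the lower Cryab and Bag3 values was not tested.

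Whether the KI effect differed between tissues was tested as its size in muscle less its size in the cerebellum. No member was called in limma (adjusted p from 0.133 to 0.882), 4 had an unadjusted p under 0.05, and 0.143% of all genes were called and 13.8% had such a p. Cryab had the smallest p: the difference between effects was 0.62 ± 0.15 (SE, adjusted p = 0.133). Its KI arrays lay above WT in muscle (30.3% of all tested genes did) and below it in the cerebellum (20% did). Hspb1 followed with 0.64 ± 0.17 (adjusted p = 0.169), Hspb7 with 0.80 ± 0.26 (0.258) and Bag3 with 0.51 ± 0.19 (0.301). The Hspb7 value rests on cerebellum levels near the array background. For Hspb2 the difference was -0.06 with a 95% interval from -0.44 to 0.31.

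Both muscle groups stood above both cerebellum groups in every member, and the order of the genotypes within a tissue was less firm. In muscle the arrays of the genotypes overlapped in Hspb2, Hspb6 and Bag3. In the cerebellum they overlapped in Hspb1, Hspb2, Hspb3, Hspb7 and Hspb8. Neighbouring groups in the order passed the test between genotypes in Hspb1 in muscle alone.

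Filamin C, a known client of BAG3 and HSPB8 and binding partner of HSPB7 in muscle, rose in KI muscle. Flnc was at 10.34 and 10.62 in KI muscle and at 9.72 and 9.79 in WT, a rise of 0.72 ± 0.15 (SE), or 1.65-fold, with adjusted p = 0.0306. As with Hspb1, the call ended when 1 muscle array of any group was left out (0.0527 to 0.154), when muscle was fitted alone (0.0647) or with no filter on dim genes (0.0592). Flnc was the only 1 of 15 tested BAG3 partners and genes of chaperone-assisted autophagy to pass, beside 3.55% of all genes. In that list 12 had a positive difference, beside 55% of all genes, and 8 had both KI arrays above both WT arrays, beside 30.3%. The median was 0.17 against 0.03 over all genes. The HSP70 gene Hspa1a (0.41 ± 0.12, adjusted p = 0.103), the tethering factor Vps16 (0.34 ± 0.10, 0.104) and the autophagy receptor Sqstm1 (0.38 ± 0.13, 0.143) did not pass. Of 9 desmin filament and Z-disc genes Flnc alone passed. The intermediate filament protein Synm was at -0.52 ± 0.16 (0.119), the actinin Actn2 at 0.36 ± 0.14 (0.185) and myotilin, Myot, at -0.35 ± 0.14 (0.209).

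Among HSF1-regulated chaperones 1 of 15 rose in KI muscle, beside 2.66% of all genes. It was Hsp90aa1, the inducible cytosolic HSP90 (0.61 ± 0.11, adjusted p = 0.0219). Leaving out 1 muscle array, whichever it was, ended that call (0.0831 to 0.0992), as did a fit of muscle alone (0.0653). The list's median was 0.08 against 0.03 over all genes. Of the 15, 9 were above 0, where 55% of all genes were, and 6 below. Without overlap between genotypes, 6 were higher in KI, beside 30.3% of all genes, and 4 lower, beside 19.9%. An unadjusted p under 0.05 in limma was found for 3 higher and 2 lower genes, where 20.3% of all genes had such a p in either direction. Hspa1a is in this list too. Dnajb4, an HSP40 of muscle, was at 0.36 ± 0.12 (0.135), and the collagen chaperone Serpinh1 at -0.43 ± 0.17 (0.195). The heat shock factors Hsf2 (0.37 ± 0.13, 0.16) and Hsf4 (0.25 ± 0.11, 0.23) did not pass. In the cerebellum none of the 15 chaperones was called in limma, where 0.205% of all tested genes were. In that tissue 1 of the 15 had an unadjusted p under 0.05, beside 5.33% of all genes. This was the HSP40 gene Dnajb1 (-0.32 ± 0.13, adjusted p = 0.889). There 13 of the 15 were below 0 (47.5% of all genes were above it) and 4 had both KI arrays below both WT arrays, beside 20% of all genes, with a median of -0.14 against -0.01 over all genes.

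The remaining relatives and partners were not called in either tissue. Of the BAG family, Bag5 was at 0.23 ± 0.10 in muscle (adjusted p = 0.255) and Bag2 at 0.37 ± 0.17 (0.273). In this family 0 of 5 had an unadjusted p under 0.05 in limma, where 20.3% of all genes tested in muscle did. Of the kinases of small heat shock proteins, taken with Dmpk, 1 of 6 had such a p, beside the same 20.3%. That gene was Dmpk, the Hspb2 partner, at 0.36 ± 0.13 (adjusted p = 0.177), and the p38 kinase Mapk14 was at 0.33 ± 0.17 (0.32). The small heat shock proteins known from other organs had negative differences in muscle, Hspb9 of testis at -0.47 ± 0.21 (0.251) and Cryaa of the lens at -0.17 ± 0.17 (0.638). Odf1 was below the limit for testing. In the cerebellum Mapkapk5 was at -0.26 ± 0.11 (0.914) and Flnc at 0.31 ± 0.15 (0.941). Flnc stood near the array background there, at 5.28 and 5.46 in KI and at 4.90 and 5.21 in WT. Its value on WT replicate 95 lay below that array's 40th percentile of 4.97.

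**Figure D3:**
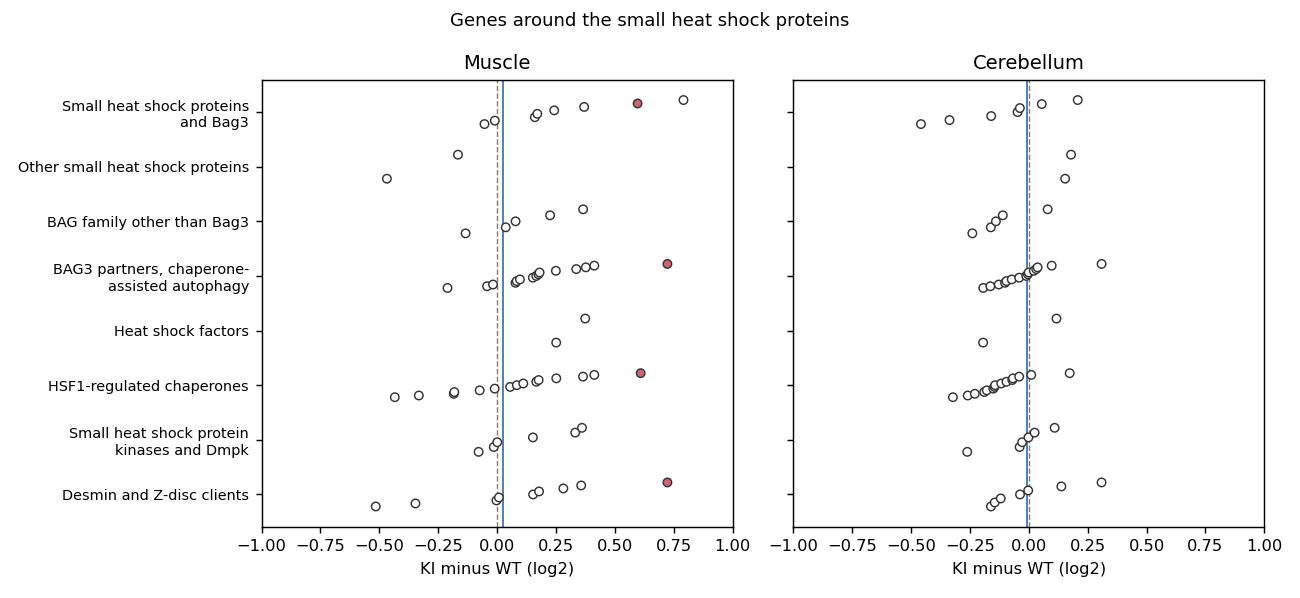
Points are KI minus WT log2 differences of tested genes, 1 row per list, in muscle (left) and cerebellum (right); filled points passed an adjusted p of 0.05, and the blue line is the median of all tested genes. The filled points are Hspb1 (0.60), Flnc (0.72, in 2 lists) and Hsp90aa1 (0.61), all in muscle, and no point is filled in the cerebellum.

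Genes with a pattern like a member's were sought by the root mean square difference between the 8 log2 values of the arrays, each gene centred on its own mean, among 14707 other genes. Nearest to Hspb1 were the muscle glycogen synthase Gys1 (0.17), the collagen-binding proteoglycan Lum (0.18) and the galectin Lgals1 (0.19). Between genotypes Gys1 differed by 0.33 in muscle and 0.04 in the cerebellum, Lum by 0.46 and 0.16, and Lgals1 by 0.62 and -0.02. Nearest to Cryab were the scaffold Amot (0.11), Lrrfip1 (0.13) and the actin-binding Lsp1 (0.13), with muscle differences of 0.02 to 0.08 and cerebellum differences from -0.30 to -0.20. Nearest to Bag3 were the homeobox factor Six4 (0.12), the fatty-acid-binding Fabp3 (0.13) and the oestrogen receptor Esr1 (0.16). Six4 differed by 0.18 in muscle and -0.25 in the cerebellum, Fabp3 by 0.03 and -0.17, and Esr1 by 0.05 and -0.04. Bag3 itself differed by 0.17 and -0.34. The measure takes in the difference between tissues too, so a near gene need not share the difference between genotypes.

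**Figure D4:**
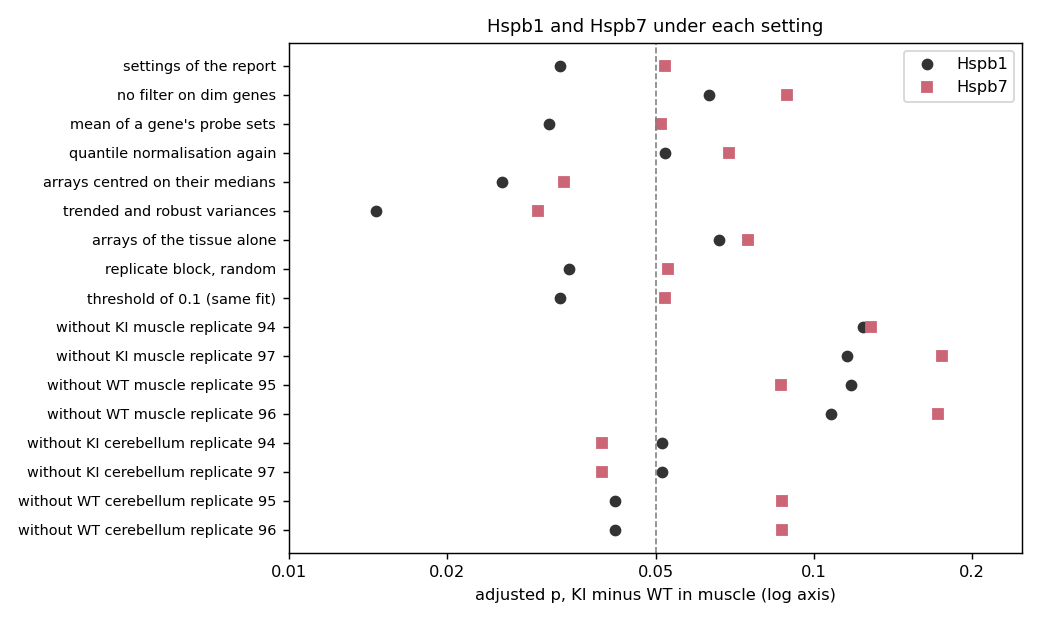
Points are adjusted p values of Hspb1 (circles) and Hspb7 (squares) for KI minus WT in muscle on a log axis, 1 row per setting of the analysis, and the dashed line is 0.05. Both genes lie right of the line whenever 1 muscle array is left out (Hspb1 0.108 to 0.124, Hspb7 0.0868 to 0.176).

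Tbp, the gene with the expanded tract, differed by 0.11 ± 0.12 in muscle (adjusted p = 0.634) and by -0.18 ± 0.12 in the cerebellum (SE; 0.998), and the probe set does not tell the alleles apart. Array medians lay between 5.40 and 5.51. Both arrays of a group correlated across probe sets at 0.977 to 0.989 (Pearson), a description only. The tissue labels fitted the muscle fibre and granule cell markers. Acta1, Ckm and the other 4 fibre markers were called higher in muscle. All 4 granule cell markers were called lower in muscle, and 3 of them (Gabra6, Neurod1 and Pax6) were below the 40th percentile on all muscle arrays. The slow fibre list did not separate the tissues in this way: 0 of its 6 markers were called higher in muscle and 1 was called lower.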

How the data were processed

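The authors deposited log2 expression values, 1 for each probe set on each array. Per the submitters' processing notes GCOS and RMA were used. RMA as a method corrects background, normalises probes between arrays and summarises them, and it compresses differences at low levels; the sources used here do not give versions or a genome build. There were 35556 probe sets and 8 arrays. The platform annotation gave 1 symbol to 21789, several to 1621 and none to 12146. Genes entered a test within a tissue if 2 or more of the 4 arrays reached that array's 40th percentile, and a test across tissues if kept in either. From these values a mean per group was fitted in limma 3.58.1 (R 4.3.3), with eBayes variances (4 residual and 5.30 prior degrees of freedom). Benjamini-Hochberg adjustment ran over all genes tested. Outside the alternatives, every adjusted p comes from that fit. The procedure was also run on simulated data with normal spread drawn from the fitted variances, which cannot test the assumptions of the fit. Errors are SE, and intervals are 95% from the fit. The number of arrays limits the precision.

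The members and gene lists were chosen with earlier results of these data known. Named genes are the 8 members, Tbp, up to 4 members of a list with the smallest p, and the 3 genes nearest in pattern to Hspb1, Cryab and Bag3. Summed marker levels are log2 of the sum of linear values. Arrays were not paired. Alternatives are given in the closing section.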

Additional observations from a re-analysis of the deposited data

Results flagged for a closer look

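Cryab had both KI arrays above both WT arrays in muscle and both KI arrays below both WT arrays in the cerebellum, which put it forward for a second look. Of all tested genes 30.3% had the first trait and 20% the second, and the share with both was not counted. The muscle effect minus the cerebellum effect was 0.618 on the log2 scale (SE 0.15), and this difference did not pass in limma (adjusted p = 0.133, from 0.0619 to 0.411 over 16 alternatives).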

How the results depend on the processing

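The count of members called in muscle, 1 in the report, was 0 with no filter on dim genes, after another quantile normalisation and with the muscle arrays alone. It was 2 with arrays centred on their medians, with trended and robust variances and at an adjusted p of 0.1, and from 0 to 1 when 1 array was left out. Dropping the filter changed both the genes adjusted over and the genes behind the eBayes variances, and these were not told apart. The threshold acts through the level itself, and the cause of the others was not tested. Over all genes the median KI minus WT difference in muscle was 0.0626 after centring and 0.0005 after quantile normalisation, against 0.0260 in the report. Without the filter adjusted p was 0.0633 for Hspb1 and 0.0592 for Flnc, and Hspb1 had 0.052 after quantile normalisation. Of the members' values under the alternatives, 125 of 128 in muscle kept their sign, 108 of 112 in the cerebellum (7 members), 127 of 128 for the difference between tissues and 128 of 128 for tissue. The counts of members called stayed at 0 in the cerebellum and for the difference between tissues, and at 8 for tissue, under all alternatives run. Hspb1 in the cerebellum was at 0.10 without WT replicate 95 against -0.05.

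Counts over all genes moved more. In muscle 495 became 246 with no filter, 155 with muscle arrays alone, 995 at an adjusted p of 0.1 and 105 to 385 without 1 array. In the cerebellum 28 became 18 with no filter and 4 to 29 without 1 array. For the difference between tissues 21 became 3 without the filter, 63 under trended and robust variances, 108 at an adjusted p of 0.1 and 0 to 23 without 1 array. Numbers in the titles recur between tissues, but arrays with the same number did not deviate together (r = 0.05 in KI and -0.10 in WT, over genes). With the number as a replicate block, random, 1 member was called in muscle and 494 genes, and with a fixed replicate block 0 members and 14 genes for the difference between tissues, against 21. With 2 arrays per group, a left-out array leaves a lone array that is assumed to vary like the others. Levels near the 40th percentile (Hspb7 and Hspb3 in the cerebellum) limit their tissue folds.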
